A study of Bos taurus with 4 samples.

Results

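The aquaporin and ion pump genes of blastocyst cavitation were followed here on 5 transcripts, those of AQP3, AQP11, ATP12A, ATP1B1 and ATP1B3. They were found by the gene symbol that GEO's platform annotation gives to each probe, 5 of the 15216 genes so named, with 8 of the 43794 bovine probes of the array: 3 for ATP1B3, 2 for AQP3 and 1 for each of the others. Of the 8 probes, 7 passed a filter on dim probes that 36447 probes passed in all. The genes were chosen with the difference between the 2 donor ages already known, so that this difference is described below and not tested. The probes of one gene share its symbol and the same arrays, and are not replicates. Whether they read the same transcript was not tested.

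The pools came from early blastocysts of Holstein heifers (Bos taurus), made by in vitro maturation, fertilization and culture after ovarian stimulation with FSH under progesterone treatment, and collected 168 hours after fertilization. Each of 4 heifers gave a pool at a donor age of 14 months and a pool at 11 months, and both were hybridised to 1 two-colour array. The sperm came from adult bulls, both ages shared the same treatment, and how many embryos made up a pool is not stated. Collections at the 2 ages were made at different times, so that age and time of collection cannot be told apart. The 14-month pool carried the dye Cy3 in replicates 1 and 2 and Cy5 in replicates 3 and 4, and each replicate is a different heifer. A ratio is log2 of 11 over 14 months as the authors deposited it, so that a positive ratio is a lower signal in the 14-month pool, and errors are SDs over the 4 heifers.

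A blastocyst forms its cavity when the trophectoderm, its outer epithelium, moves sodium ions inwards and water follows. The Na,K-ATPase drives this transport; its catalytic alpha subunit needs a beta subunit to reach the basolateral membrane, and ATP1B1 and ATP1B3 encode 2 of the beta subunits. AQP3 is an aquaglyceroporin, a channel for water and glycerol. AQP11 belongs to the unorthodox aquaporins and lies mainly in intracellular membranes. ATP12A is the catalytic alpha subunit of the non-gastric H,K-ATPase, which exchanges protons for potassium. Pools contain all the cells of the embryos, and fewer trophectoderm cells cannot be told apart from less RNA per cell.

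The arrays carried the signal of a blastocyst. Of 14 trophectoderm markers with a probe, all passed the filter and 13 were above the negative control spots in all 8 channels, and the same held for 6 of 6 inner cell mass markers. A spot counted as above background when its signal exceeded the mean of the 153 negative control spots of that channel by over 2 SD. In the 14-month pools 61.7% to 67.9% of all probes were above background, against 63.5% to 72.1% in the 11-month pools. The arrays grouped by dye orientation: across the tested probes replicates 1 and 2 had ratios correlated at r = 0.56, replicates 3 and 4 at r = 0.31, and arrays of opposite orientation at r = -0.17 to 0.12. These are correlations across probes, which are not independent replicates, and the ratios of the 5 genes are therefore given within both orientations. With limma's moderated test over the 4 arrays, 0 of 36447 probes passed an adjusted p of 0.05 for age, and 3352 of them, or 9.2%, had an unadjusted p under 0.05. Without replicate 2 the number under an unadjusted p of 0.05 was 1637. With dye orientation as a term in the same limma fit, 373 probes passed the adjusted p for age.

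By the deposited ratios, the brightest probes of AQP3, AQP11, ATP12A and ATP1B3 were lower in the 14-month pool of every heifer, and ATP1B1 was not. The mean ratios were 0.60 ± 0.33 for AQP3, 0.39 ± 0.27 for AQP11, 0.62 ± 0.17 for ATP12A and 0.62 ± 0.18 for ATP1B3 (SD, n = 4 each). On a linear scale these mean log2 ratios put the 14-month pools at 0.658 times the 11-month pools for AQP3 and 0.764 times for AQP11. For both ATP12A and ATP1B3 the value was 0.649 times. The ratio of ATP1B1 was -0.02 ± 0.32. A positive ratio on all 4 arrays was seen in 8.84% of all tested probes and in 9.35% of all genes by their brightest probe. This share describes the array, and nothing is read from it, since the genes were picked on the same ratios. Taken as levels per pool rather than as ratios, 0 of the 8 probes had groups that did not overlap, against 3.03% of all tested probes.

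**Figure D1:**
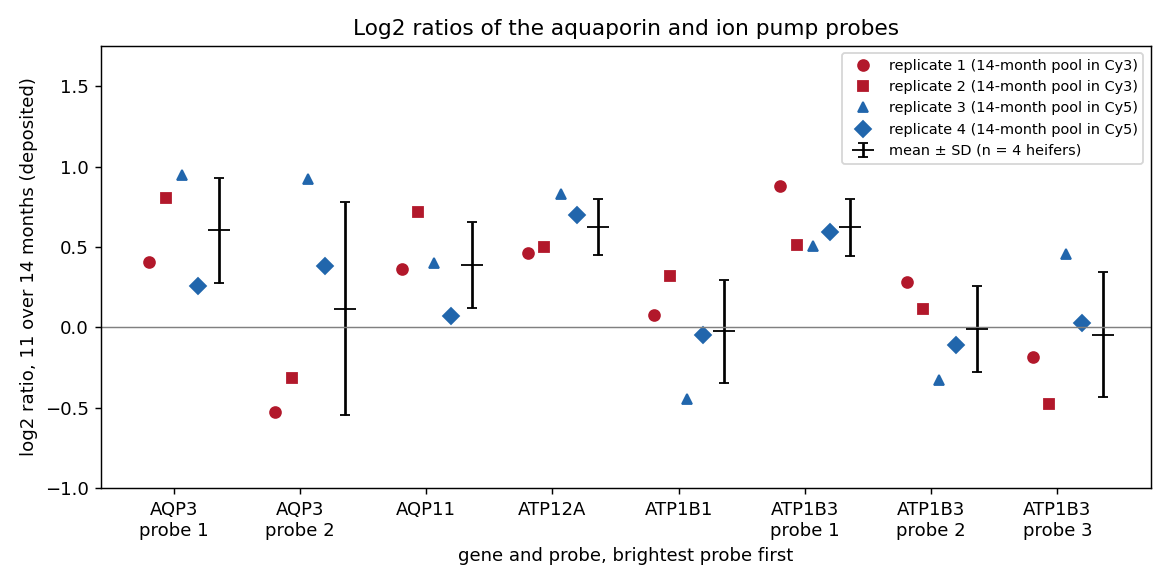
Log2 ratios of 11 over 14 months (vertical axis, as deposited) of the 8 probes, 1 point per heifer, with replicates 1 and 2 (14-month pool in Cy3) in red, replicates 3 and 4 (14-month pool in Cy5) in blue, and the mean ± SD in black. The first AQP3 and ATP1B3 probes, AQP11 and ATP12A lie above 0 in all 4 heifers, and the 4 other probes have the red points on one side of 0 and the blue points on the other.

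AQP3 was read by 2 probes, which gave different answers. The brighter one had ratios of 0.41, 0.80, 0.95 and 0.25 in replicates 1 to 4, so that all 4 heifers had the lower AQP3 signal at 14 months and replicate 4 the smallest difference. The orientations gave the same mean, 0.60 in replicates 1 and 2 and 0.60 in replicates 3 and 4. Its normalized levels, in log2 units, were 10.71, 10.85, 10.75 and 10.51 for the 14-month pools of these replicates and 11.01, 11.61, 11.81 and 10.77 for the 11-month pools. The 14-month pools were close together, with an SD of 0.14, while the 11-month pools spread over 1.04 with an SD of 0.49. The groups overlapped through 1 pool alone, the 11-month pool of replicate 4, which lay below the 14-month pool of replicate 2.

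The dimmer AQP3 probe had ratios of -0.53, -0.31, 0.92 and 0.38 in replicates 1 to 4. Its mean of 0.12 ± 0.66 thus rested on values of both signs, divided by dye orientation. It was above background in all 8 channels, with 68 to 357 units of raw signal in the 14-month pools and 125 to 324 in the 11-month pools. In the pools of replicates 3 and 4 the ratios of both probes were alike, differing by 0.03 and -0.13. In replicates 1 and 2 the brighter probe exceeded the dimmer one by 0.94 and 1.12. The direction for AQP3 in replicates 1 and 2 therefore depends on the probe, and which probe reads the transcript better was not tested.

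Whether the ratio of a probe differed between the dye orientations is a separate question from its mean over the 4 heifers, and could be tested. For the dimmer AQP3 probe the mean of replicates 1 and 2 less that of replicates 3 and 4 was -1.07, with an unadjusted p of 0.00164 in limma. After Benjamini-Hochberg adjustment over all 36447 probes p was 0.0553, just short of the threshold. The brighter probe had a difference of 0.00 and an adjusted limma p of 0.997. Of the 7 tested probes of the 5 genes, 0 passed an adjusted p of 0.05 for orientation, against 2.38% of all tested probes, and 1 had an unadjusted p under 0.05, against 22.4%. The choice of the genes with their ratios known may have favoured ratios alike on all 4 arrays. Nothing is therefore read from these counts, or from the large orientation p values of single probes given here and below. By sign alone, 4 of the 8 probes had replicates 1 and 2 on one side of 0 and replicates 3 and 4 on the other, a split found in 24.6% of tested probes. Dye and heifer cannot be told apart in this difference, because the heifers of one orientation are not those of the other.

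AQP11 had ratios of 0.36, 0.72, 0.40 and 0.07 in replicates 1 to 4. All were positive, but in replicate 4 the pools of both ages were nearly equal, and replicate 2 had the largest difference. The normalized levels were 7.97, 7.94, 8.64 and 8.21 in the 14-month pools and 8.26, 8.56, 9.04 and 8.25 in the 11-month pools. The groups overlapped, since replicate 3 had the highest AQP11 level of its age at both ages and its 14-month pool exceeded 3 of the 11-month pools. The mean ratio was 0.54 in replicates 1 and 2 and 0.24 in replicates 3 and 4, and this difference had an adjusted p of 0.467 in limma. Without replicate 2 the mean was 0.28, and without replicate 4 it was 0.49.

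ATP12A had deposited ratios of 0.47, 0.50, 0.83 and 0.70 in replicates 1 to 4, with an SD of 0.17 against 0.18 for the bright ATP1B3 probe. Every heifer had less ATP12A signal at 14 months, and by these ratios replicates 3 and 4 differed more than replicates 1 and 2. From the scanner medians with normexp and loess the ratios were 0.39, 0.42, 0.84 and 0.43, so that replicate 3 alone stood out. The levels were 7.89, 7.31, 8.15 and 7.40 in the 14-month pools, against 8.28, 7.73, 8.98 and 7.83 in the 11-month pools. The range among heifers, 0.84 at 14 months and 1.26 at 11 months, exceeded the mean ratio. The groups therefore overlapped although each heifer moved the same way, with replicate 3 highest and replicate 2 lowest at both ages. The mean deposited ratio was 0.48 in replicates 1 and 2 and 0.77 in replicates 3 and 4, and their difference had an adjusted p of 0.443 in limma. The ATP12A probe was above background in all 4 pools at each age, but was not bright. Its raw signals were 108 to 321 units at 14 months, where the negative controls set limits of 50.4 to 135. At 11 months they were 144 to 663, against limits of 60.9 to 159.

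**Figure D2:**
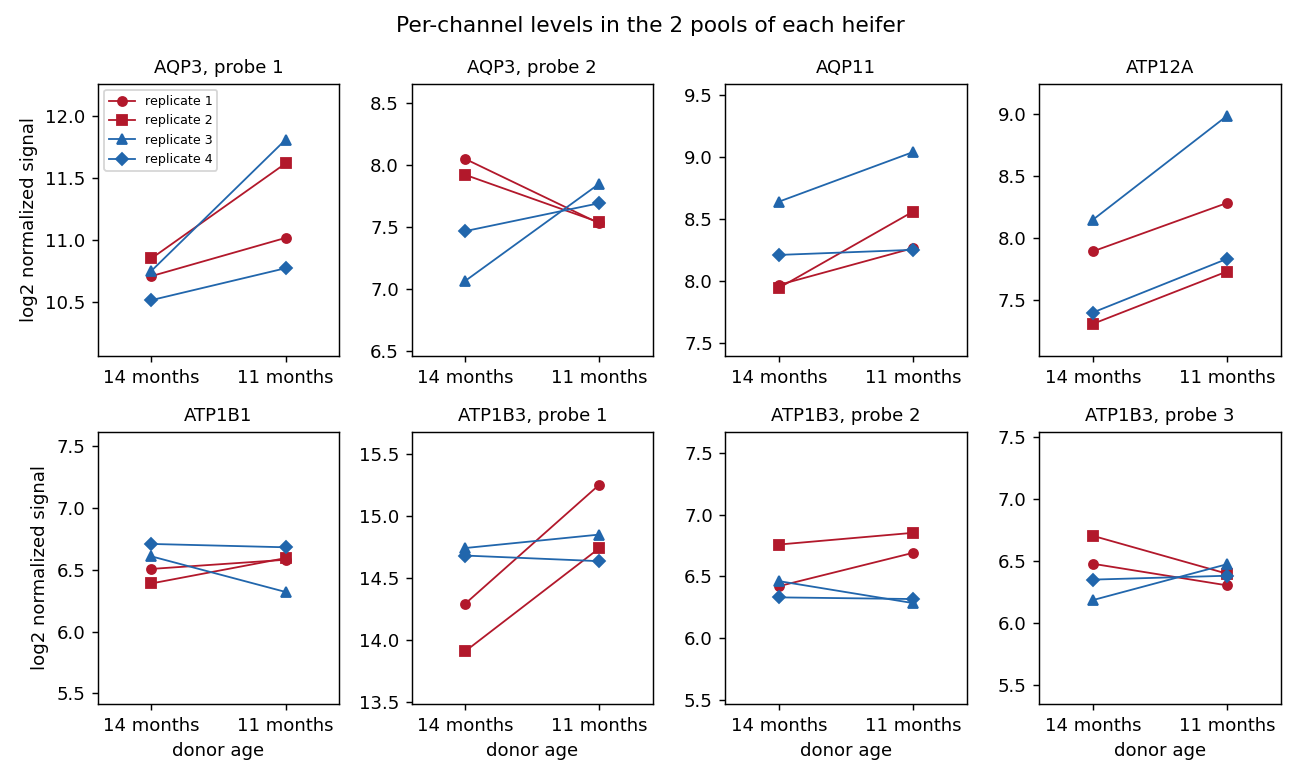
Normalized log2 signal (vertical axes, each spanning the same width) of the 8 probes in the 14-month pool and the 11-month pool of each heifer, joined by a line; red marks the heifers whose 14-month pool carried Cy3 and blue those whose 14-month pool carried Cy5. In the first AQP3 probe, AQP11 and ATP12A all 4 lines climb towards 11 months, while the pools of the ages overlap in every panel.

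ATP1B1, the beta subunit that occurs with the catalytic subunit in most epithelia, was near background. Its only probe had raw signals of 113, 61, 51 and 72 in the 14-month pools, where the limits set by the negative controls were 135, 79.8, 50.4 and 69.3. In the 11-month pools it had 93, 61, 123 and 163, against limits of 102, 60.9, 158 and 159. It was thus above background in 2 of the 4 pools at each age, by a narrow margin. The ratios were 0.07, 0.32, -0.45 and -0.04, positive in one dye orientation and negative in the other. The levels were 6.55 ± 0.14 in the 14-month pools and 6.54 ± 0.16 in the 11-month pools (SD, n = 4 each), a difference smaller than the spread between heifers. The orientation difference of 0.44 had an adjusted p of 0.294 in limma. For a probe this dim a difference between the ages would be hard to detect, and the values do not show that there was none.

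ATP1B3 had the brightest of the 8 probes and 2 of the dimmest. The bright probe had raw signals of 19661, 17987, 24976 and 25189 in the 14-month pools, against 35490, 22289, 33487 and 30740 in the 11-month pools. These raw signals are not corrected for the difference in brightness between the dyes, and no spot on the arrays reached the 16-bit limit of 65535. The deposited ratios were 0.88, 0.51, 0.50 and 0.59 in replicates 1 to 4, close together apart from replicate 1. By these ratios replicates 1 and 2 averaged 0.70 and replicates 3 and 4 averaged 0.55, a difference with an adjusted p of 0.735 in limma. The gene was chosen with these ratios known, so nothing is read from this p.

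The ratio of this bright probe depended on how the scanner signals were normalized. From the scanner medians, with normexp background correction and loess within each array, its ratios were 0.96, 0.83, 0.11 and -0.05. The mean of replicates 1 and 2 was then 0.90, and that of replicates 3 and 4 was 0.03. Over all tested probes the raw log2 ratio of 11 over 14 months had a median of -0.41, -0.46, 1.50 and 1.08 on the 4 arrays, so that the Cy3 channel was the brighter one throughout and most so on replicate 3. The bright ATP1B3 probe had raw log2 ratios of 0.85, 0.31, 0.42 and 0.29, which exceeded the array's median in replicates 1 and 2 and fell short of it in replicates 3 and 4. In normalized levels from the scanner files it had 14.29, 13.91, 14.74 and 14.68 in the 14-month pools, against 15.25, 14.74, 14.85 and 14.64 in the 11-month pools. The groups overlapped, and in replicate 4 the 14-month pool was the higher one by these levels. The deposited ratios of 0.50 and 0.59 in replicates 3 and 4 were thus not matched by these scanner values.

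The 2 other probes carry the symbol ATP1B3 as well, and neither moved with the bright one. One had ratios of 0.28, 0.11, -0.32 and -0.11 and was above background in 1 of the 4 pools at each age. The other had ratios of -0.19, -0.47, 0.46 and 0.03, was not well above background in any pool, and was the probe left out by the filter. Their means of -0.01 ± 0.26 and -0.04 ± 0.39 were far smaller than their spread. With both channels below background the ratio of this probe has no meaning as a fold.

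Other processing moved the means of ATP12A and ATP1B3 further than those of the aquaporins. Across the 5 ways of making ratios from the scanner files, the brighter AQP3 probe stayed between 0.55 and 0.60 and AQP11 between 0.30 and 0.35. ATP12A ranged from 0.42 with mean in place of median foreground signals to 0.59 with plain background subtraction. The bright ATP1B3 probe ranged from 0.39 with median centring to 0.52 with background subtraction. All these means were positive. ATP1B1 turned from -0.02 to 0.04, and the dimmer AQP3 probe from 0.12 to -0.07, when mean foreground signals were used. Leaving out 1 heifer moved AQP3 to between 0.49 and 0.72, ATP12A to between 0.55 and 0.68 and ATP1B3 to between 0.54 and 0.66.

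**Figure D3:**
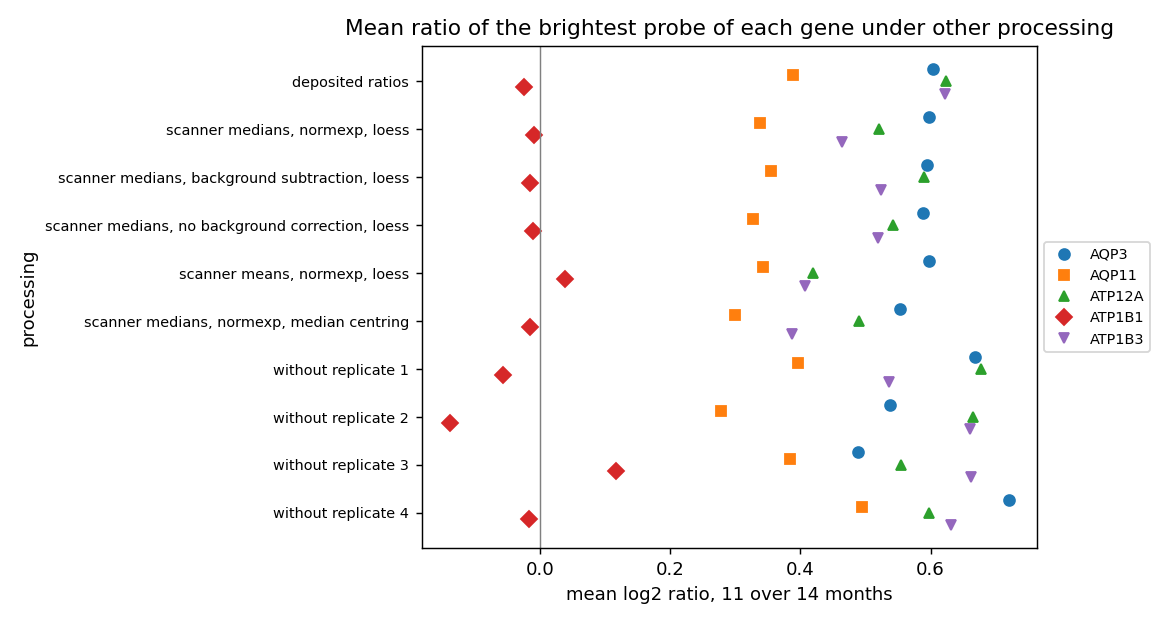
Mean log2 ratio of 11 over 14 months (horizontal axis) of the brightest probe of each gene, from the deposited ratios, from 5 ways of processing the scanner files, and from the deposited ratios without 1 heifer. AQP3, AQP11, ATP12A and ATP1B3 stay above 0 in every row, at 0.28 or more, and ATP1B1 lies on both sides of 0.

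Of the other genes through which a blastocyst could move water and ions, none passed the adjusted threshold for age, which 0 of all 36447 tested probes passed. The lists were drawn up with earlier results of these data known. Of 9 other aquaporins with a probe, 5 passed the filter and 0 of the 5 had an unadjusted p under 0.05 for age in limma. Over all 13519 genes by their brightest probe this share was 9.34%, with 5.13% lower and 4.21% higher in the 14-month pools. AQP8 was at 0.20 ± 0.37, AQP4 at 0.12 ± 0.14, AQP2 at 0.11 ± 0.48, AQP7 at 0.06 ± 0.24 and AQP5 at -0.01 ± 0.40. Their median ratio of 0.11 compares with 0.02 over all genes. Of these 5 aquaporins 1 was above background in all 8 channels, and near background a difference would be hard to detect. AQP7, an aquaglyceroporin like AQP3, is the gene next to AQP3 in the ARS-UCD2.0 annotation, and its ratios of 0.14, -0.23, 0.00 and 0.33 did not keep a sign. The AQP4 probe was above background in 0 pools at 14 months and 1 at 11 months, and a dimmer AQP4 probe, in 1 pool at each age, had the opposite sign at -0.07 ± 0.20. AQP1, AQP6, AQP9 and the lens aquaporin MIP did not pass the filter.

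The partners of the pump subunits were measured in part. ATP1A4, a catalytic subunit known from sperm, was at 0.07 ± 0.25, and the beta subunits ATP1B2 and ATP1B4 were at 0.09 ± 0.38 and 0.03 ± 0.28. ATP4A, the catalytic subunit of the gastric H,K-ATPase, was at 0.08 ± 0.36, and its beta subunit ATP4B did not pass the filter. None of the 4 measured partners had an unadjusted p under 0.05 in limma, the smallest being 0.573, and their median ratio was 0.07. Only 1 of the 4 was above background in all 8 channels. ATP1A4 and ATP1B4 each had positive ratios in replicates 1 and 2 and negative ones in replicates 3 and 4. Such a split by dye orientation was found in 24.6% of all tested probes. ATP1B2 and ATP4A each had a negative ratio in replicate 4 alone.

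Among 7 measured regulators of the sodium pump, 0 had an unadjusted p under 0.05 in limma and the median ratio was 0.00. Above background in all 8 channels were 4 of the 7. NKAIN1, which binds the pump's beta subunit, was at -0.21 ± 0.47, the kinase SGK1 at 0.10 ± 0.24 and FXYD1, a small pump subunit of muscle and heart, at 0.07 ± 0.42. FXYD3 was at 0.00 ± 0.21. Of 24 measured genes of sodium, proton, chloride and bicarbonate transport, 0 had an unadjusted p under 0.05 by the deposited ratios in limma, and 11 of the 24 had a positive mean. The smallest p values were those of the chloride-proton exchanger CLCN3 at 0.38 ± 0.44, the volume-regulated anion channel subunit LRRC8D at -0.31 ± 0.33 and the epithelial sodium channel subunit SCNN1A at -0.29 ± 0.30. The list's median was -0.03. Of 8 calcium pumps, which belong to the same P-type family as ATP12A, 0 had a limma p under 0.05 before adjustment, and the median ratio was -0.02. ATP2C1 of the Golgi was at 0.29 ± 0.27, the plasma membrane pump ATP2B3 at 0.09 ± 0.45, and its relative ATP2B4 at -0.58 ± 1.04, with -1.29 and -1.66 where the 14-month pool carried Cy3, and 0.27 and 0.35 where it carried Cy5. The 4 dimmer ATP2B4 probes averaged -0.03 to 0.25, and 2 of them split by orientation the other way, with positive ratios in replicates 1 and 2 and negative ones in replicates 3 and 4.

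**Figure D4:**
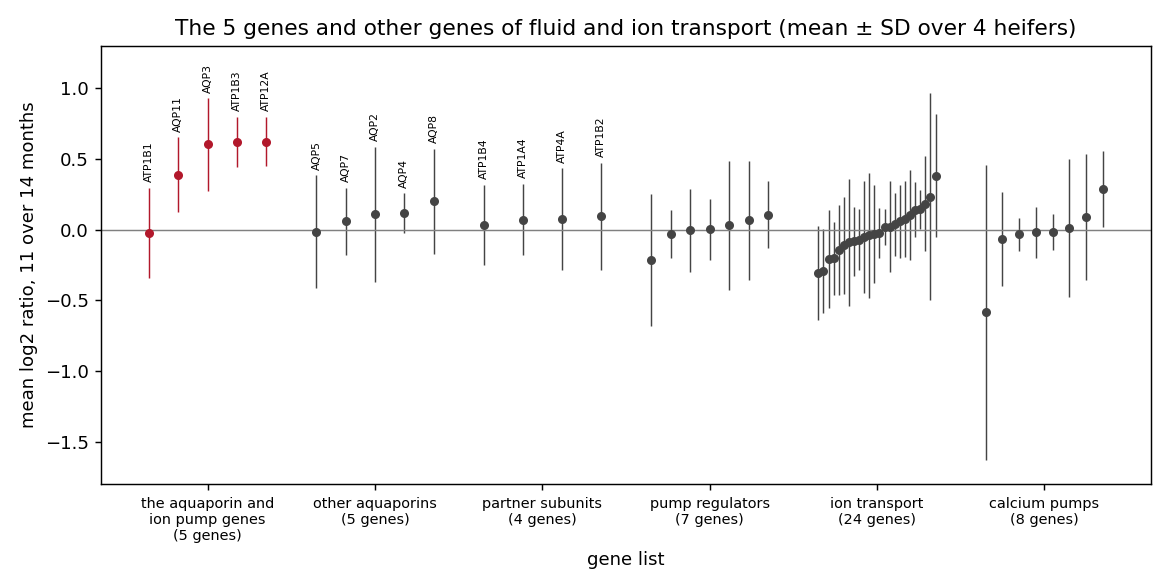
Mean log2 ratio of 11 over 14 months (vertical axis) with its SD over 4 heifers for the brightest probe of each of the 5 genes (red) and of 48 other measured genes of fluid and ion transport in 5 lists (grey). AQP3 at 0.60, ATP12A at 0.62 and ATP1B3 at 0.62 exceed every grey point, the highest of which is CLCN3 at 0.38. AQP11 at 0.39 lies just above CLCN3. ATP1B1 lies among the grey points. The 5 genes were chosen with these ratios known, so nothing is read from this order. Above background in all 8 channels were 1 of 5 other aquaporins, 1 of 4 partner subunits and 4 of 7 pump regulators. The same held for 15 of 24 ion transport genes and 5 of 8 calcium pumps.

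AQP3 and ATP12A were also looked at beside markers of the cells a pool can hold. Of 14 trophectoderm markers 1 had an unadjusted p under 0.05 in limma, the endocytic adaptor DAB2 at -0.45 ± 0.28, while 3 dimmer DAB2 probes were at 0.12 ± 0.67, -0.08 ± 0.40 and -0.10 ± 0.21. The 14 mean ratios ran from -0.45 to 0.55 with a median of 0.13, against 0.02 over all genes. Their summed normalized signal was 75282 to 118672 units in the 14-month pools and 72094 to 109767 in the 11-month pools. For dye orientation 3 of the 14 passed an adjusted limma p of 0.05, against 2.38% of all tested probes, dimmer probes included. The 3 were the keratins KRT8 and KRT19 and the transcription factor GATA2. KRT8 had ratios of 1.42, 0.72, -1.22 and -1.06 in replicates 1 to 4, and GATA2 0.91, 0.79, -0.91 and -0.13. KRT19 went the other way, with -0.22, 0.04, 1.36 and 1.01. The 6 inner cell mass markers had a median of 0.03, and the 5 measured hypoblast markers 0.04. Of these, NANOG, a transcription factor of the inner cell mass, had an unadjusted limma p under 0.05 at 1.12 ± 0.37, with 0.65, 1.54, 1.24 and 1.03 in replicates 1 to 4. The 7 measured cumulus and granulosa markers summed to 852 to 905 units in the 14-month pools and 822 to 880 in the 11-month pools, with a median ratio of -0.07. The 5 measured oocyte markers summed to 602 to 624 units in the 14-month pools and 570 to 668 in the 11-month pools, and the 2 measured sperm markers to 211 to 279 units in the 14-month pools and 196 to 438 in the 11-month pools. Above background in all 8 channels were 2 of the 7 cumulus and granulosa markers, 1 of the 5 oocyte markers and 0 of the 2 sperm markers. These sums thus lie largely near background and are not amounts of those cells. AMH of granulosa cells, the oocyte factor GDF9 and the sperm proteins ODF1 and AKAP4 did not pass the filter. The part of the cell types in the ratios of the 5 genes was not tested.

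The genes with the most similar pattern were found by the Euclidean distance between the 4 ratios, over 13518 other genes and 4 arrays. For AQP3 they were ATXN7L3 of a histone deubiquitinase module at a distance of 0.152, HMGCLL1, a relative of HMG-CoA lyase, at 0.168 and ZDHHC22 at 0.201. For AQP11 they were the annexin ANXA4 at 0.0604, the RNA-binding protein NONO at 0.0752 and LOC100297240 at 0.104. ATP12A had no close neighbour, the nearest being the small GTPase ARL6 at 0.306, LOC781533 at 0.328 and the lysosomal protein DRAM1 at 0.365. For ATP1B3 they were the lysosomal protease CTSV at 0.178, the mitochondrial NAD carrier SLC25A51 at 0.237 and the glycolytic enzyme ENO1 at 0.238. For ATP1B1 they were GAS2L3 at 0.0863, SMG5 at 0.0893 and the translation initiation factor subunit EIF3M at 0.0929. Dimmer probes of ATXN7L3 at -0.16 ± 0.06, ANXA4 at -0.10 ± 0.57 and DRAM1 at -0.15 ± 0.11 had the opposite sign to the probe matched, while other dimmer probes of ATXN7L3 at 0.17 ± 0.32 and ANXA4 at 0.33 ± 0.24 had the same sign. Among so many genes some come close on 4 values in any case, and the list describes these arrays.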

How the data were processed

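Groups, dyes and replicate numbers came from the labels. The authors deposited scanner files with, per the file headers, the uncorrected intensity of every spot and its surroundings in Cy3 and Cy5, and 2 tables of log2 ratios. The series matrix of these deposited log2 ratios was the main source; no source used here gives its normalization or centring. It equalled the other deposited table within 5e-06 once that was turned to 11 over 14 months, and correlated with loess-normalized scanner ratios at 0.914 to 0.989 (slopes 1.07 to 1.39), from which its direction and base were taken. Its column medians were 0.00853, 0.00336, 0.00104 and 0.0234. Per the labels' protocols, the RNA was amplified linearly before labelling, which can change relations between transcripts.

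Analyses used R 4.3.3, limma 3.58.1, Python 3.11.15 and matplotlib 3.10.9. Levels are scanner medians after normexp (offset 50), loess with the 1426 control and blank spots at weight 0, and Aquantile scaling. The 7347 probes whose mean log2 signal did not exceed the mean plus 2 SD of the negative controls were left out of tests. limma (lmFit, eBayes; 3 residual and 5.98 prior degrees of freedom) gave two-sided p-values with Benjamini-Hochberg adjustment over 36447 probes, for age with 1 coefficient and for dye orientation with a second. The number of arrays, 4, limits precision; an exact sign-flip test of 4 pairs cannot go below 0.125. Of the 21790 named probes, 20025 symbols were current in ARS-UCD2.0, 1524 were updated by synonym and 241 kept. Named were all probes of the 5 genes, every measured partner subunit, the 3 genes of smallest p in each transport list and any other in those lists at an unadjusted p under 0.05, and the 3 nearest genes in pattern; a gene is represented by its brightest probe. AQP7, AQP5, FXYD3 and the markers DAB2, KRT8, KRT19, GATA2 and NANOG, named beyond this rule, were chosen after their values were seen, as were members and lists with earlier results of these data known. The scripts were tested on simulated data. No source used here names the array design's genome build, so no coordinates are printed. Alternatives changed the source of ratios, background correction, foreground measure, normalization, filter, dye term, array block and heifers included.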

Additional observations from a re-analysis of the deposited data

How the results depend on the processing

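Values from 4 arrays limit every statement, and ATP1B1 and 2 ATP1B3 probes lie at background. Mean foreground signals gave 0.42 for ATP12A and 0.41 for the bright ATP1B3 probe, and median centring gave 0.39 for ATP1B3, each more than 1 SD below the deposited value of 0.62; the cause was not tested. The other mean ratios of the 8 probes moved by less than 1 SD, and leaving out 1 heifer gave 0.28 to 0.49 for AQP11 and -0.14 to 0.12 for ATP1B1. The probes at an unadjusted p under 0.05 for age, 3352 with 1862 lower at 11 months, were 2050 and 1072 with median centring. With a dye term in the limma fit they were 6025 and 3226, and 373 passed an adjusted p of 0.05 in place of 0. Without the array as a block there were 2056. Without 1 heifer they were 1637 to 3851, with 1002 to 2152 lower at 11 months, the lowest without replicate 2. For dye orientation 869 probes passed, against 513 by normexp and loess, 1926 by median centring and 81 to 615 without 1 heifer, the lowest without replicates 1 and 2. Genes at an unadjusted p under 0.05 in the list of sodium, proton, chloride and bicarbonate transport were 0 by the deposited ratios and 1 to 3 in 10 alternatives, and calcium pumps had 1 without replicate 3 and 2 without replicate 4 or with a dye term. The other aquaporins, partner subunits and pump regulators had 0 in each alternative. No paired analysis by replicate number was possible beyond the array, because each array already pairs the ages of 1 heifer.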
